A study of Homo sapiens with 6 samples.

Results

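Transcripts of the Hedgehog pathway were examined in CAL51 cells, a human line of triple-negative breast cancer origin, after knockout of TREX1, the main exonuclease of cytosolic DNA. Of 6 symbols listed (GLI1, GLI2, GLI3, PTCH1, SMO and SUFU), 5 had a row among the 14788 genes of the deposited log2 CPM table (CPM being reads scaled to library size, with a small prior added before the log), and GLI3 was not analysed here. The set was chosen by the measured fold change of GLI1, which lay more than 2-fold lower with both guides. In the authors' deposited table, whose values made that choice, GLI1 had a log2 fold change of -1.01 in KO-1 and -1.39 in KO-2. GLI1 was just inside that limit with KO-1, and the next lowest member, SMO, stood at -0.16 in KO-1 and -0.21 in KO-2. Values of GLI1 are therefore given as a description with no test, while the other 4 genes were listed for their place in the pathway.

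The groups were KO-1 and KO-2, each CAL51 made TREX1 knockout with its own guide RNA by a CRISPR v2 lentivirus, and control CAL51, with 2 libraries each. The sources used here do not say whether the control carried a guide or Cas9, and the notes deposited with the tables speak of several knockout clones, so a guide cannot be told apart from a clone. Whether the 2 replicates of a group were grown separately is not stated, and a p-value therefore covers no more than library-to-library spread, possibly technical. The targeted gene, TREX1, was not analysed here, which left the knockout labels without a check by its level.

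Hedgehog ligands bind PTCH1, a receptor that otherwise holds the membrane protein SMO inactive. Active SMO gathers in the primary cilium and releases GLI transcription factors from SUFU, a cytoplasmic protein that restrains them. GLI2 and GLI3 carry the first response, with GLI3 acting largely as a repressor, while GLI1 is an activator that is itself a transcriptional target and a common readout of pathway activity. PTCH1 is a second direct target. In epithelial tumours GLI1 is also known to be driven by other inputs without ligand.

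The GLI factors bind a well known 9-base motif, GACCACCCA, which reads TGGGTGGTC on the other strand. RefSeq windows (GRCh38.p14) of the 250 bases before a transcription start were searched for it on both strands, and 4 members (GLI2, PTCH1, SMO and SUFU) had such windows. Of these, PTCH1 held the exact motif, in 1 of its 5 windows, and it is shown because PTCH1 is the member described as a direct GLI target. The window below lies at chr9:95509267-95509516 on the minus strand, outside annotated exons, and is printed 5′ to 3′ with the motif in capitals.
PTCH1: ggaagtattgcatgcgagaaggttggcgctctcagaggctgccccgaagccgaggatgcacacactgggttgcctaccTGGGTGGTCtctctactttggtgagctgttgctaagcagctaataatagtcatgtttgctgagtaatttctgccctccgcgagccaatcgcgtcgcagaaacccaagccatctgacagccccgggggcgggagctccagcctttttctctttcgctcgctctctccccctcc
The motif ends 163 bases before the start of that transcript. Of all 35116 RefSeq windows of this length, 70 (0.199%) held the motif. A match describes the letters and does not show that a factor bound there.

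Libraries held 13222933 reads (KO-2 replicate 1) to 25785055 reads (control replicate 2) over the genes listed. KO-2 replicate 1 stood apart, with 61 genes at 0 reads against 5 to 16 elsewhere, and correlated with its replicate at a Pearson r of 0.988, against 0.993 within KO-1 and 0.995 within control. For some genes the KO-2 result is therefore also given without it. Not every KO-2 result that moved is given in that way. Where a sign changed, the closing section gives the range over libraries left out. Of the marker lists for the labelled cell type, all 5 epithelial genes were present, from 4.84 log2 CPM for CDH1 to 9.93 for KRT8. The mesenchymal genes were present as well, with group means of 10.46 to 10.64 for FN1 and 6.24 to 6.65 for VIM. ERBB2 lay at 7.35 to 7.64, while ESR1 and PGR had no row and were not analysed here. Of markers of leukocytes, endothelium and fibroblasts, PTPRC lay at 3.95 to 4.35 and CD14 at -2.17 to -0.01, CDH5 at 3.46 to 4.05 and PECAM1 at 1.18 to 2.19, and COL1A1 at 4.06 to 4.99 and LUM at 1.52 to 2.23. Group means ran from 5.28 to 5.53 for PDGFRB and from 2.04 to 2.16 for VWF. CD3E, LYZ, DCN, HBA1 and HBB had no row. COL1A1, 1 of 3 fibroblast genes tested, rose with both guides (0.63, adjusted p = 0.0039), and PDGFRB (-0.18, adjusted p = 0.10, all knockout libraries below control) and LUM (0.17, adjusted p = 0.65) did not pass the test. CDH5, 1 of 3 endothelial genes, fell (-0.40, adjusted p = 0.030), and PECAM1 (0.06, adjusted p = 0.88) and VWF (0.09, adjusted p = 0.75) did not pass. ERBB2 fell (-0.19, adjusted p = 0.017), and 4 of 5 epithelial and 1 of 2 mesenchymal markers rose, in a comparison that called 14.6% of all genes higher and 14.9% lower. The part of these shifts in the results was not tested, and in bulk RNA fewer cells of a type and less RNA per cell cannot be told apart.

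GLI1, the transcriptional activator and target gene of the pathway, is annotated in GENCODE release 29 (hg38) on the plus strand of chromosome 12, from 57460135 to 57472262. Its log2 CPM was 1.06 and 1.08 in the KO-1 libraries and 0.71 and 0.71 in the KO-2 libraries, against 2.29 and 1.76 in control. All 4 knockout libraries lay below both control libraries. The same held for 24.0% of all genes tested, and nothing is read from it here because this difference chose the set. GLI1 was the scarcest member, with 33 and 37 reads in KO-1, 20 and 31 in KO-2, and 112 and 86 in control.

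As CPM, with exact 95% Poisson intervals that cover counting error only, GLI1 stood at 1.99 (1.37 to 2.79) and 2.01 (1.42 to 2.77) in KO-1. It stood at 1.53 (0.937 to 2.37) and 1.54 (1.04 to 2.18) in KO-2, against 4.80 (3.95 to 5.77) and 3.29 (2.63 to 4.07) in control. The interval of control replicate 2 overlapped those of both KO-1 libraries, and that of control replicate 1 lay above all the others except that of control replicate 2. Mean CPM of the KO-1 libraries was 49.5% of the control mean, and that of the KO-2 libraries was 38.0%.

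**Figure D1:**
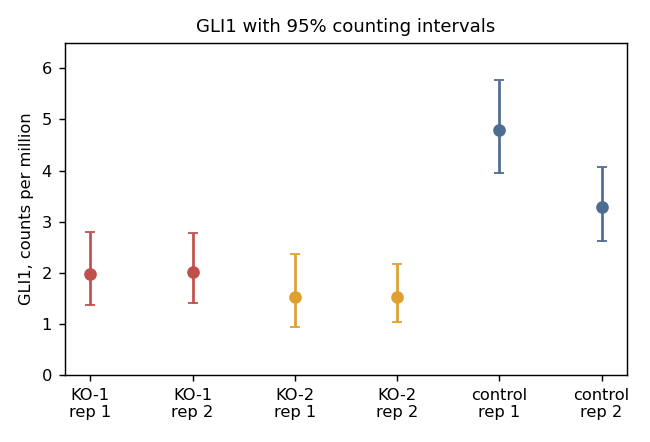
GLI1 in CPM (vertical axis, from 0) in each of the 6 libraries, with exact 95% Poisson intervals as bars. The KO-1 libraries sit at 1.99 and 2.01 and the KO-2 libraries at 1.53 and 1.54, below the control libraries at 4.80 and 3.29, which also differ most from each other.

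On the deposited log2 scale, whose prior understates changes of scarce genes, GLI1 stood at -0.96 ± 0.29 for KO-1 and at -1.32 ± 0.29 for KO-2 relative to control (SE from limma, a linear model fitted over all genes). The control libraries themselves differed by more than the replicates of either guide, with an SD of 0.011 in KO-1 and 0.0029 in KO-2, against 0.37 in control (n = 2 each). The knockout SDs are far smaller than the counting error on 33 and 37 reads in KO-1 and 20 and 31 in KO-2. They are therefore not read as a measure of how well the knockout libraries repeat. Without control replicate 1 the difference was -0.69 in KO-1 and -1.05 in KO-2, and without control replicate 2 it was -1.22 in KO-1 and -1.58 in KO-2. Between the guides GLI1 differed by -0.36 ± 0.29 (SE, KO-2 minus KO-1, 95% interval -0.99 to 0.27), given with no test because the same libraries chose the set. An 8-base stretch of the GLI1 exons is shared with exons of ARHGAP9 on the opposite strand, and whether counting used strand is not stated.

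GLI2, the main activator of the first response to ligand (chromosome 2, 120735623 to 120992653, plus strand), had log2 CPM values of 5.88 and 5.58 in KO-1 and 5.55 and 5.70 in KO-2, against 5.62 and 5.69 in control. The 3 groups overlapped. Its fold change (log2) was 0.08 in KO-1 (95% interval -0.15 to 0.31, adjusted p = 0.62) and -0.03 in KO-2 (-0.26 to 0.20, adjusted p = 0.87). Its sign turned when single libraries were left out (KO-1 at -0.07 without KO-1 replicate 1, KO-2 at 0.04 without KO-2 replicate 1), so no direction is given.

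PTCH1, the Hedgehog receptor and direct GLI target whose promoter window is printed above, lies on chromosome 9 from 95442980 to 95517057 (minus strand). It had log2 CPM values of 5.59 and 5.53 in KO-1 and 5.36 and 5.54 in KO-2, against 5.57 and 5.69 in control. One KO-1 library lay between the control libraries, so the groups overlapped, and the lowest value was that of KO-2 replicate 1. The log2 fold change was -0.07 in KO-1 (95% interval -0.27 to 0.13, adjusted p = 0.61) and -0.18 in KO-2 (-0.38 to 0.02, adjusted p = 0.20). For both guides together it was -0.12 ± 0.08 (SE, 95% interval -0.30 to 0.05, adjusted p = 0.27). Without KO-2 replicate 2 the KO-2 value was -0.27 (adjusted p = 0.020) and that of both guides passed the test (-0.17, adjusted p = 0.042), and without KO-2 replicate 1 the KO-2 value was -0.09 (adjusted p = 0.48). An antisense gene, AL161729.1, shares 711 exon bases with PTCH1, and reads of these genes cannot be told apart if strand was ignored.

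SMO, the membrane protein that PTCH1 restrains, lies on chromosome 7 from 129188872 to 129213545 (plus strand). Its log2 CPM was 6.71 and 6.69 in KO-1 and 6.54 and 6.74 in KO-2, against 6.89 and 6.84 in control, on 1212 to 2983 reads. All knockout libraries lay below both control libraries, as did those of 24.0% of all genes tested. SMO fell with both guides together by 0.19 ± 0.07 on the log2 scale (SE, adjusted p = 0.047), in a comparison that called 29.6% of all genes (14.9% lower). Neither guide alone passed the test, at -0.16 in KO-1 (adjusted p = 0.13) and -0.22 in KO-2 (adjusted p = 0.069). The adjusted p missed the threshold when control replicate 1 (0.31), control replicate 2 (0.18), KO-1 replicate 1 (0.12) or KO-1 replicate 2 (0.13) was left out, with no mean-variance trend (0.15), with library medians set equal (0.12) and with a replicate block (0.062). Without KO-2 replicate 1 the difference in KO-2 was -0.12 (adjusted p = 0.16), and without KO-2 replicate 2 it was -0.32 (adjusted p = 0.00058). The KO-1 value of -0.16 passed without KO-2 replicate 1 (adjusted p = 0.011) and without KO-2 replicate 2 (0.012), which enter it only through the shared spread. An antisense gene, AC011005.4, shares 129 exon bases with SMO.

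SUFU, which tethers GLI proteins in the cytoplasm, lies on chromosome 10 from 102503987 to 102633535 (plus strand). Its log2 CPM was 5.10 and 5.11 in KO-1 and 5.20 and 5.19 in KO-2, against 5.04 and 5.02 in control. The knockout libraries all lay above both control libraries, as did those of 22.3% of all genes tested. The SD of log2 CPM was 0.0075 in KO-1, 0.011 in KO-2 and 0.0084 in control (n = 2 each). limma also draws on the spread of other genes of like abundance, and the differences did not pass its test. They were 0.07 in KO-1 (95% interval -0.12 to 0.26, adjusted p = 0.56) and 0.16 in KO-2 (-0.03 to 0.36, adjusted p = 0.22).

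**Figure D2:**
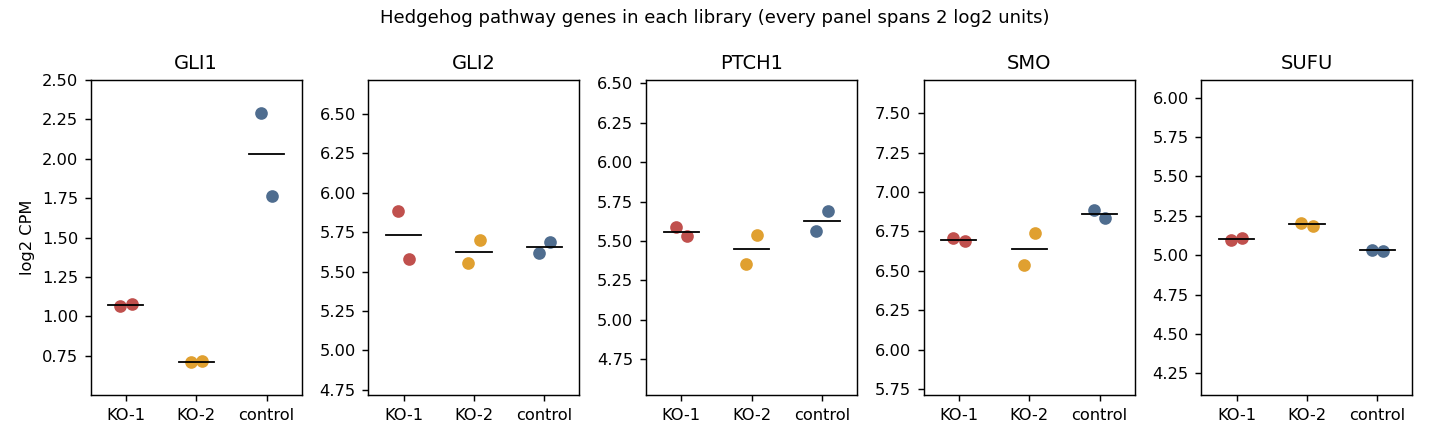
Log2 CPM (vertical axes, each spanning 2 log2 units) of the 5 genes in the 2 KO-1, 2 KO-2 and 2 control libraries, with points for libraries and lines for group means. GLI1 at 0.71 to 1.08 in knockout libraries lies below its control values of 2.29 and 1.76. In the other 4 panels the means lie close together on the same span, with knockout points of SMO all lower and those of SUFU all higher than control.

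Set against length, as mean CPM per kilobase of annotated exons, SMO was the most abundant member, at 24.1 ± 0.20 in KO-1, 23.2 ± 2.30 in KO-2 and 26.9 ± 0.65 in control (SD, n = 2 each). GLI2 followed at 7.27 ± 1.06, 6.72 ± 0.48 and 6.85 ± 0.24 in the same groups. SUFU stood at 4.99 in KO-1, 5.32 in KO-2 and 4.74 in control, and PTCH1, whose annotated exons are the longest at 16591 bases, at 2.84 in KO-1, 2.63 in KO-2 and 2.98 in control. GLI1 was lowest at 0.476 in KO-1, 0.365 in KO-2 and 0.962 in control, and the order of the 5 genes was the same in the 3 groups. The length joins the exons of all annotated transcripts of a gene, and the place of PTCH1 depends on it. By mean CPM alone, PTCH1 in control (49.4) lay near GLI2 (50.3) and above SUFU (32.6). Between KO-2 and KO-1, where 1.14% of all genes were called (0.334% higher and 0.806% lower), limma called 0 of the other 4 members (GLI2, PTCH1, SMO and SUFU), with 0 at an unadjusted p below 0.05 and 0 by limma-voom on recovered reads.

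The other genes of the pathway were taken from a list of 74 symbols, of which 65 had a row and 62 were tested. With both guides together 8 rose and 7 fell, or 24.2% called against 29.6% of all genes, with a median log2 fold change of 0.06 against -0.01. With library medians set equal the split was 11 higher and 4 lower, and that of all genes moved to 2575 higher and 1598 lower in place of 2011 and 2057. For KO-1 the counts were 10 higher and 7 lower (27.4% against 29.7% of all genes, of which 14.6% were higher and 15.1% lower), and for KO-2 they were 5 higher and 3 lower (12.9% against 16.9% of all genes, of which 8.73% were higher and 8.19% lower). The shares called were near or below those of all genes, and both comparisons share the control libraries. With both guides fewer genes of the list were called when a KO-1 or control library was left out, and more without a KO-2 library. Counts over all genes also moved with the library left out. Between KO-2 and KO-1 limma called 0 of the 62 (10 at an unadjusted p below 0.05, and 1 by limma-voom), against 1.14% of all genes.

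Of the ligands, IHH was the sole one with a row, at 19 to 30 reads per library, and SHH and DHH were not analysed here. IHH stood at 0.21 for both guides (adjusted p = 0.66). Of the 5 tested genes of ligands and their release, limma called 0 with both guides (1 at an unadjusted p below 0.05), against 29.6% of all genes. HHAT, which attaches palmitate to the ligands, had 44 and 46 reads in KO-1 and 8 and 36 in KO-2, against 27 and 33 in control, and was picked out after its values were seen. It stood at 0.43 with both guides (adjusted p = 0.43), and at 0.78 without KO-2 replicate 1 (adjusted p = 0.030). By guide HHAT stood at 1.03 in KO-1 (adjusted p = 0.10) and at -0.17 in KO-2 (adjusted p = 0.82), with a difference of -1.20 between KO-2 and KO-1 (adjusted p = 0.20). The KO-1 value passed with limma-voom (adjusted p = 0.044), without KO-2 replicate 1 (0.0083) and without KO-2 replicate 2 (0.013). DISP1, which releases lipid-modified ligand from the producing cell, rose in KO-1 by 0.34 ± 0.11 (SE, adjusted p = 0.040), with log2 CPM values of 5.27 and 5.40 in KO-1 against 4.93 and 5.05 in control. That call was lost without control replicate 1 (adjusted p = 0.25) or 2 (0.11) without KO-1 replicate 1 (0.10) or 2 (0.25), with no mean-variance trend (0.12) and with a replicate block (0.054). With both guides DISP1 stood at 0.25 (adjusted p = 0.073), and at 0.33 without KO-2 replicate 2 (adjusted p = 0.0015).

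Among 8 tested co-receptors and antagonists limma called 0 with both guides (1 at an unadjusted p below 0.05), against 29.6% of all genes. GPC5, a heparan sulphate glypican, fell in KO-1, with log2 CPM values of 0.51 and 0.38 in KO-1 against 1.44 and 1.80 in control (-1.17 ± 0.36, adjusted p = 0.030). That call rested on 22 reads in each KO-1 library and was lost without either control library (adjusted p = 0.093 and 0.21) or either KO-1 library (0.11 and 0.15), and with no mean-variance trend (0.084). With both guides GPC5 stood at -0.72 (adjusted p = 0.11), and at -0.98 without KO-2 replicate 1 (adjusted p = 0.0079). HHIP, a decoy that binds ligand, is a target gene often read beside GLI1 and PTCH1, and it was picked out after its values were seen. HHIP had 22 to 33 reads in every library and stood at 0.26 for both guides (95% interval -0.42 to 0.95, adjusted p = 0.56).

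Genes of the cilium and of SMO signalling gave 4 lower and 0 higher of 15 tested (26.7% lower, against 14.9% of all genes). Fewer fell when a KO-1 or control library was left out, and more without a KO-2 library, while counts over all genes moved as well. GPR161, a ciliary receptor that holds the pathway off by raising cyclic AMP, had the lowest value of this group. Its log2 CPM was 5.52 and 5.39 in KO-1 and 5.34 and 5.36 in KO-2, against 6.11 and 6.03 in control, on 527 to 1700 reads. The knockout libraries were close together and all far below both control libraries. For 24.0% of all genes tested the knockout libraries likewise all lay below control. GPR161 fell by 0.67 ± 0.07 for both guides (SE, log2 scale, adjusted p = 0.00013), by 0.62 in KO-1 (adjusted p = 0.00042) and by 0.72 in KO-2 (adjusted p = 0.00047). The guides differed by -0.10 (KO-2 minus KO-1, 95% interval -0.28 to 0.08, adjusted p = 0.57).

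The other 3 that fell encode parts of cilium transport or of the complex at the cilium base. IFT88, a subunit of the intraflagellar transport train, stood at -0.31 for both guides (adjusted p = 0.016), and DYNC2H1, the motor of return transport, at -0.35 (adjusted p = 0.041). IQCE, which anchors the Ellis-van Creveld complex that relays SMO signals, stood at -0.36 (adjusted p = 0.015). In the authors' deposited table, KO-1 stood at -0.46 for IFT88 (false discovery rate 0.0035), -0.42 for DYNC2H1 (0.029) and -0.50 for IQCE (0.0041). In KO-2 alone IFT88 stood at -0.17 (adjusted p = 0.26), DYNC2H1 at -0.30 (0.15) and IQCE at -0.22 (0.18), and the difference between the guides passed for none of the 3 (adjusted p = 0.16 for IFT88, 0.74 for DYNC2H1 and 0.23 for IQCE). INPP5E, a ciliary lipid phosphatase, rose in KO-1 by 0.40 (adjusted p = 0.049). Calls for both guides were lost without control replicate 1 for IFT88 (adjusted p = 0.099) and IQCE (0.24), without control replicate 2 for IFT88 (0.21), IQCE (0.050) and DYNC2H1 (0.55), without KO-1 replicate 1 for IFT88 (0.059) and DYNC2H1 (0.081), and without KO-1 replicate 2 for IQCE (0.060) and DYNC2H1 (0.13). With both guides INPP5E stood at 0.26 (adjusted p = 0.12), and at 0.40 without KO-2 replicate 1 (adjusted p = 3.37e-05). Its KO-1 call ended when either control library (adjusted p = 0.18 and 0.16) or either KO-1 library (0.26 and 0.15) was left out, and with no mean-variance trend (0.19).

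Of 19 regulators of GLI protein, 4 rose and 2 fell with both guides, or 31.6% called against 29.6% of all genes. Here too, fewer were called when a KO-1 or control library was left out and more without a KO-2 library, and counts over all genes also moved. The 2 that fell were the catalytic subunits of protein kinase A, which marks GLI proteins for processing into repressors. PRKACA had log2 CPM values of 6.34 and 6.46 in KO-1 and 6.63 and 6.41 in KO-2, against 6.86 and 6.94 in control. Its knockout libraries all lay below control, as did those of 24.0% of all genes tested. It fell by 0.44 ± 0.07 (SE, log2 scale, adjusted p = 0.0014), by 0.50 in KO-1 (adjusted p = 0.0015) and by 0.38 in KO-2 (adjusted p = 0.012). PRKACB stood at -0.20 for both guides (adjusted p = 0.044). By guide, in the authors' deposited table, it stood at -0.11 in KO-1 (false discovery rate 0.31) and at -0.30 in KO-2 (0.024). The regulatory subunit PRKAR1A did not pass the test (0.05, adjusted p = 0.44).

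Those that rose were 3 casein kinase 1 genes, whose products act on GLI proteins after protein kinase A, and NUMB, an adaptor that with the ligase ITCH promotes loss of GLI1 protein. NUMB rose by 0.24 ± 0.06 (adjusted p = 0.011) on log2 CPM values of 6.81 and 6.80 in KO-1 and 6.83 and 6.69 in KO-2, against 6.54 and 6.55 in control. In the authors' deposited table CSNK1A1 stood at 0.13 in KO-1 (false discovery rate 0.12) and at 0.25 in KO-2 (0.015). CSNK1G1 stood there at 0.24 (0.056) and 0.21 (0.12), and CSNK1E at 0.38 (0.013) and 0.17 (0.28). CSNK1D, also listed but not called with both guides, stood at 0.37 (0.044) and 0.03 (0.91). ITCH, likewise not called with both guides, stood there at -0.14 in KO-1 (0.10) and at -0.07 in KO-2 (0.50). With both guides in limma CSNK1A1 rose by 0.19 (adjusted p = 0.020), CSNK1G1 by 0.22 (adjusted p = 0.041) and CSNK1E by 0.27 (adjusted p = 0.0496). Without control replicates 1 and 2 these calls were lost for NUMB (adjusted p = 0.13 and 0.11), CSNK1A1 (0.20 and 0.13), CSNK1G1 (0.22 and 0.25), CSNK1E (0.22 and 0.23) and PRKACB (0.23 and 0.27). Without KO-1 replicates 1 and 2 they were lost for CSNK1A1 (0.066 and 0.083), CSNK1G1 (0.097 and 0.12), CSNK1E (0.095 and 0.17) and PRKACB (0.14 and 0.090), and for NUMB without KO-1 replicate 1 (0.053). The KO-2 call of PRKACA was lost without control replicates 1 and 2 (0.082 and 0.13).

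Of 17 tested genes known as GLI targets in some tissues, 4 rose and 1 fell with both guides, or 29.4% called against 29.6% of all genes, with a median of 0.15 against -0.01 for all genes. Again fewer were called when a KO-1 or control library was left out and more without a KO-2 library, and counts over all genes also moved. CDK6, a G1 cyclin-dependent kinase, had log2 CPM values of 6.41 and 6.18 in KO-1 and 5.86 and 5.66 in KO-2, against 5.11 and 5.43 in control. It rose by 1.03 ± 0.12 in KO-1 (SE, adjusted p = 0.00018) and by 0.49 ± 0.12 in KO-2 (adjusted p = 0.019), and the difference between the guides was -0.54 (adjusted p = 0.057). The KO-2 call was lost without control replicate 1 (adjusted p = 0.21). The difference between guides passed without KO-2 replicate 1 (adjusted p = 0.0020) and without KO-2 replicate 2 (0.0082), and with limma-voom on recovered reads of all 6 libraries (0.039). In the authors' deposited table it was -0.54 with a false discovery rate of 0.038.

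WNT5A, a secreted ligand of the Wnt family, rose by 0.39 ± 0.07 for both guides (SE, adjusted p = 0.0019), with log2 CPM values of 5.86 and 5.76 in KO-1 and 5.90 and 5.90 in KO-2, against 5.46 and 5.48 in control. CCND1, the G1 cyclin partner of CDK6, rose by 0.20 (adjusted p = 0.0028), a call that ended at 0.068 when control replicate 1 was left out. BMP4, a morphogen, rose by 0.17 (adjusted p = 0.021). FOXM1, a transcription factor of mitotic genes, stood at -0.16 for both guides and fell (adjusted p = 0.035). By guide, in the authors' deposited table, BMP4 stood at 0.19 in KO-1 (false discovery rate 0.023) and at 0.16 in KO-2 (0.079). FOXM1 stood there at -0.24 in KO-1 (0.0075) and at -0.08 in KO-2 (0.40). SFRP1, a Wnt antagonist, rose in KO-1 by 0.57 (adjusted p = 0.028) and stood at 0.14 in KO-2 (adjusted p = 0.62). CCND2 had the highest value of the list, 1.16, on 6 to 25 reads per library, and did not pass the test (adjusted p = 0.12). It was picked out after its values were seen. Without control replicates 1 and 2 the calls of BMP4 (adjusted p = 0.11 and 0.24), FOXM1 (0.22 and 0.22) and, in KO-1, SFRP1 (0.084 and 0.21) were lost, and without KO-1 replicates 1 and 2 likewise those of BMP4 (0.092 and 0.062), FOXM1 (0.085 and 0.13) and SFRP1 (0.059 and 0.20). With both guides SFRP1 stood at 0.35 (adjusted p = 0.098), and at 0.38 without KO-2 replicate 2 (adjusted p = 0.044). Of the 22 listed target symbols, tested or not, 12 had a RefSeq window. The exact GLI motif was found for 0 of these 12, against 0.253% of all 27305 genes with a window, so nothing is read from it.

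**Figure D3:**
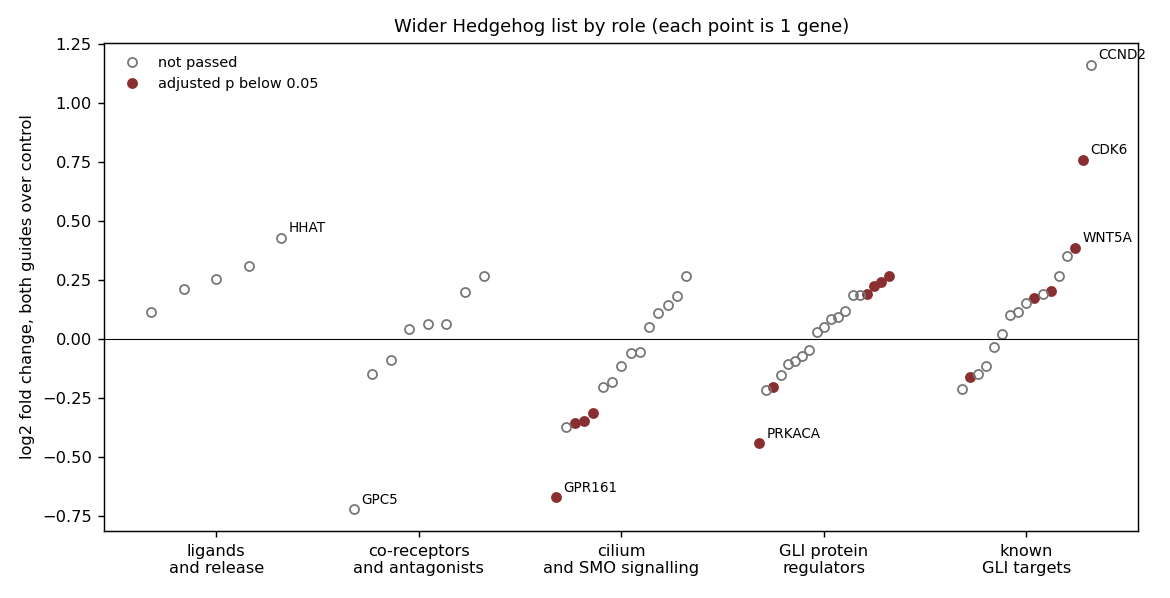
Log2 fold change of both guides over control (vertical axis) for each tested gene of the wider Hedgehog list, by role (horizontal axis, genes sorted within a role), with filled points at adjusted p below 0.05 in limma. GPR161 at -0.67 and PRKACA at -0.44 are the lowest filled points and CDK6 at 0.76 the highest. GPC5 at -0.72 and CCND2 at 1.16 lie further out as open points.

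Of the genes with a row nearest to GLI1 on chromosome 12, R3HDM2 lay 29.1 kb and STAC3 209 kb to the side of lower coordinates, and DDIT3 44.3 kb and MBD6 48.4 kb to the other. With both guides limma called 0 of the 4, against 29.6% of all genes. R3HDM2 stood at -0.11 (adjusted p = 0.39), STAC3 at -0.46 (adjusted p = 0.40), MBD6 at 0.09 (adjusted p = 0.57), and DDIT3, a stress-induced transcription factor, at 0.38 (adjusted p = 0.13).

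Among 12136 genes with a mean of at least 1 log2 CPM, those whose centred values over the 6 libraries lay closest to GLI1 were PHF7, a PHD finger protein, PYROXD1, an oxidoreductase, UNC5B, a netrin receptor, DUSP15, a phosphatase, and EFHD1, a calcium-binding protein. The root mean square difference from GLI1 was 0.12 log2 units for PHF7, 0.17 for PYROXD1, 0.20 for UNC5B, 0.21 for DUSP15 and 0.22 for EFHD1. Pearson's r with GLI1 over the same 6 libraries, which fall into groups and were used to choose the genes, ran from 0.933 for DUSP15 to 0.987 for PHF7. PHF7 had log2 CPM values of 1.36 and 1.50 in KO-1 and 1.07 and 1.06 in KO-2, against 2.70 and 2.44 in control. KO-2 was lowest and control replicate 1 highest, as for GLI1. These genes were picked for their likeness, which is a description with no test.

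**Figure D4:**
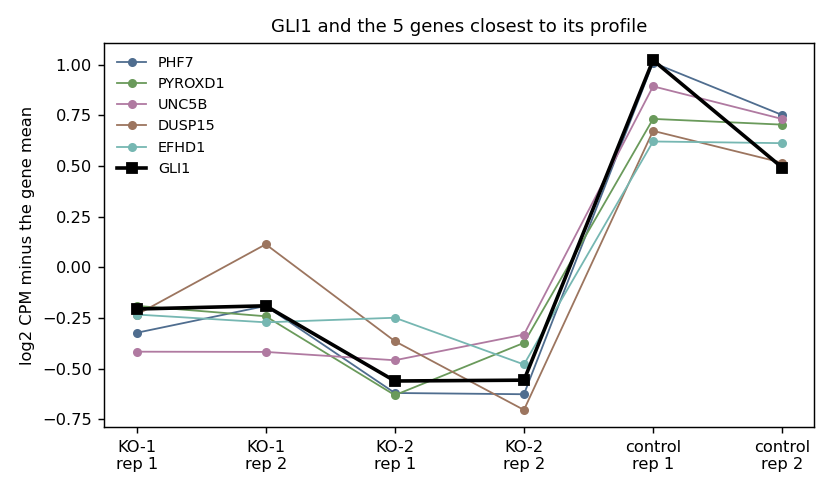
Log2 CPM minus each gene's own mean (vertical axis) in the 6 libraries (horizontal axis) for GLI1 (black squares) and the 5 genes closest to it, with lines only to guide the eye. All 6 genes lie below their mean in the KO-2 libraries and above it in both control libraries.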

How the data were processed

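The members and gene lists were chosen with earlier results of these data known. The submitters' processing notes list fastp, STAR 2.7, featureCounts (Subread 2.0) and edgeR among their tools, and hg38 among their builds. The annotation, strand setting and gene filter are not stated. The authors deposited log2 CPM values for 14788 genes in 6 libraries, and a table of their own log2 fold changes, p-values and false discovery rates. All libraries share a minimum of -3.29, the log2 of a prior of 0.102 CPM, and subtracting it gave whole reads for 100% of values (tolerance 0.01 reads). Reads and intervals come from these, with 1 read worth 0.0383 to 0.0767 CPM.

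Genes at 0 log2 CPM or more in at least 2 libraries were tested (13765 kept, 1023 removed) on the values as deposited. limma 3.58.1 (R 4.3.3) fitted group means over all 6 libraries with a mean-variance trend, 3 residual and 8.02 prior degrees of freedom. All adjusted p-values are Benjamini-Hochberg over all genes tested, called below 0.05. "Both guides" is the mean of KO-1 and KO-2 minus control. The code was tested on simulated data. Named genes were the members, up to 6 genes per role among those called in any comparison (lowest p with both guides first), the 2 genes with a row on each side of GLI1, and the 5 genes nearest in profile to GLI1, clone-based names left out. Some genes of the lists are not reported here. Positions and exon lengths are from GENCODE release 29, and promoter windows from RefSeq (GRCh38.p14). Alternatives were no filter, 1 CPM as prior, equal medians, no trend, limma-voom on recovered reads, a replicate block and each library left out.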

Additional observations from a re-analysis of the deposited data

How the results depend on the processing

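Over all genes, limma called 4068 with both guides, 4089 in KO-1, 2329 in KO-2 and 157 between KO-2 and KO-1. With no mean-variance trend the counts were 2201, 2345, 162 and 1. Leaving out 1 library at a time gave 1286 to 6075, 1694 to 6255, 362 to 4565 and 0 to 3170, and the lone library of a group was then assumed to vary like the other groups. limma-voom on recovered reads gave 4608, 4521, 2637 and 167. The replicate numbers did not pair the libraries (correlations of deviations -0.036, -0.053 and 0.044), and a replicate block gave 3782, 3829, 2054 and 105 calls.

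GLI1 with both guides stood at -1.14, at -0.85 with 1 CPM added, at -0.87 without control replicate 1 and at -1.40 without control replicate 2. GPR161 kept its call in all 3 comparisons with control under each of the 12 alternatives. With both guides, equal medians ended the calls of DYNC2H1 (adjusted p = 0.065), PRKACB (0.11) and FOXM1 (0.13), a replicate block those of PRKACB (0.065) and CSNK1G1 (0.057), and no filter that of CSNK1E (0.051). No trend ended those of IQCE (0.059), DYNC2H1 (0.14), NUMB (0.069), CSNK1A1 (0.11), CSNK1G1 (0.084), PRKACB (0.093), CSNK1E (0.18), BMP4 (0.11), FOXM1 (0.14), CCND1 (0.069) and, in KO-2, CDK6 (0.13) and PRKACA (0.11). Results that changed sign when libraries were left out are given as the lowest and highest value. With both guides GLI2 ran from -0.051 to 0.098. GLI2 ran from -0.072 to 0.23 in KO-1, from -0.10 to 0.043 in KO-2 and from -0.26 to 0.043 between the guides, where SMO ran from -0.16 to 0.044. In KO-2, GPC5 ran from -0.78 to 0.24, HHIP from -0.11 to 0.47, INPP5E from -0.14 to 0.40, CSNK1E from -0.027 to 0.34, IHH from -0.24 to 0.41 and HHAT from -0.87 to 0.53. With equal medians GLI2 in KO-2 stood at 0.011. The cause was not tested. Of 1080 recomputed values 878 counted as unchanged, which meant the same direction and side of the threshold. For GLI1 against control, which had no test, it meant the same direction and a shift smaller than the gene's residual SD. Counts were low for GLI1 (20 to 112 reads), CCND2 (6 to 25), HHAT (8 to 46), IHH (19 to 30), GPC5 (22 to 88) and HHIP (22 to 33), and intervals from reads cover counting error only.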
